A study of Mus musculus with 5 samples.

Results

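The regions described here are 25574 weak H3K4me1 peaks of mouse epiblast stem cells that lie away from H3K4me3 and carry neither H3K27 mark. They were selected on measured values of the same 4 peak lists, out of 76772 H3K4me1 peaks in all. A peak was kept if it lay on chromosomes 1 to 19, had no H3K4me3 peak within 1000 bp, overlapped no H3K27ac and no H3K27me3 peak, scored below 160 and had an H3K4me3 peak at most 100 kb away. They are called weak unmarked elements below. The score is the authors' own value for a peak. It ranks peaks within a list, and no source used here states its scale.

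The study mapped histone H3 modifications by chromatin immunoprecipitation and sequencing in EpiSC9, a line of epiblast stem cells, which are pluripotent cells taken from embryos after implantation and kept in a primed state. The medium held 10 ng/ml FGF2, irradiated mouse embryonic fibroblasts served as feeders, and 5000000 crosslinked cells went into each immunoprecipitation. Each of H3K4me1, H3K4me3, H3K27ac and H3K27me3 had 1 library and 1 peak list, and an input library was not analysed here. All lists therefore describe 1 line under 1 condition, the share of feeder chromatin was not tested, and the read depth is unknown.

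H3K4me1 is laid down mainly by the methyltransferases MLL3 and MLL4 and covers enhancers as well as the flanks of promoters. Acetylation of H3K27 by p300 and CBP accompanies enhancers in use, while Polycomb complexes place H3K27me3 at silenced genes. H3K4me1 without either H3K27 mark is commonly read as a primed or inactive enhancer state, and such elements can gain acetylation when cells differentiate.

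The 76362 autosomal H3K4me1 peaks included 50971 without H3K4me3 within 1000 bp. Of these, 41099 (80.6%) overlapped neither H3K27 mark, and 35047 of them had an H3K4me3 peak at most 100 kb away. The score limit divided these into the 25574 weak unmarked elements (73%) and 9473 strong unmarked elements, which scored 160 or more. Weak unmarked elements thus made up 33.3% of all H3K4me1 peaks, but their 33.2 Mb were 22.8% of the length that H3K4me1 covered. Besides the strong unmarked elements, they are set against 2906 weak acetylated elements, which met the same rule except that they overlapped H3K27ac.

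Each mark had 1 library, so no comparison below has a replicate check and no p-value is given. Brackets hold 95% Wilson intervals for shares and order-statistic intervals for medians. They cover counting over peaks only and are too narrow as far as neighbouring peaks share their surroundings.

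Scores of the weak unmarked elements crowded towards the low end of the list. The median score was 81.9, with quartiles of 63.1 and 110.2, and 19.8% scored below 60, where 50 is the lowest score of the list. Their median width was 1221 bp (1215 to 1226) with quartiles of 1031 and 1492 bp. Strong unmarked elements had a median width of 2261 bp (2244 to 2276), and acetylated distal elements of any score one of 2149 bp (2116 to 2180). Width and score come from the same peak calls, and across the weak unmarked elements they were linked with a Spearman's rho of 0.69. The median width was 986 bp at scores from 50 to 60 and 1690 bp at scores from 140 to 160.

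**Figure D1:**
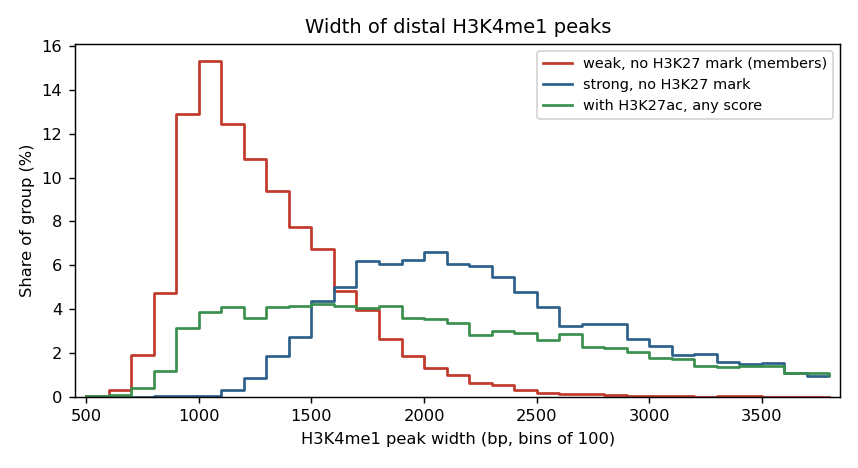
Width of distal H3K4me1 peaks (x axis, bp, bins of 100 bp) as a share of each group (y axis, %), for weak unmarked elements, strong unmarked elements and all acetylated elements. The fullest bin of weak unmarked elements, 1000 to 1100 bp with 15.3% of them, lies below their median of 1221 bp, while the other groups spread further to the right. Peaks of 3900 bp or more are not drawn and made up 0.0117%, 6.94% and 15.3% of these groups.

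Being without an H3K27 mark was the usual state of a weak distal H3K4me1 peak. Among 28704 distal peaks that scored below 160 with H3K4me3 at most 100 kb away, 89.1% (88.7 to 89.5) were unmarked, 10.1% (9.78 to 10.5) overlapped H3K27ac and 0.78% (0.685 to 0.889) overlapped H3K27me3. The acetylated share was 6.46% (5.83 to 7.14) at scores from 50 to 60 and 17.2% (15.8 to 18.7) at scores from 140 to 160. Beyond the limit it reached 21.1% at scores from 160 to 200 and 65.2% (63.2 to 67.2) at 500 and over. The limit at 160 therefore fell on a smooth slope and not at a step. Peak width grew with score too, and its part in this slope was not tested. The H3K27me3 share was far lower throughout, between 0.624% (0.447 to 0.87) at scores from 50 to 60 and 1.09% in the bands below 160, and 1.95% (1.45 to 2.62) at 500 and over.

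**Figure D2:**
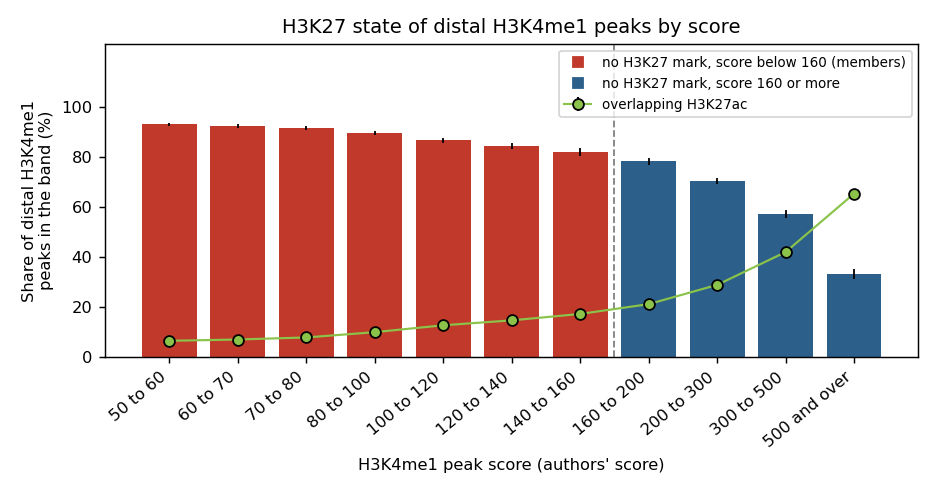
Share of distal H3K4me1 peaks without H3K27 marks (bars) and with H3K27ac (points) by H3K4me1 score band, for peaks on chromosomes 1 to 19 with H3K4me3 more than 1 kb and at most 100 kb away. Error bars are 95% Wilson intervals and the dashed line is the score limit of 160. The unmarked share is 92.9% in the lowest band and 33.3% in the highest, while the acetylated share is 6.46% and 65.2%.

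At the score and distance limits, widths just inside lay close to those just outside. The 471 elements just below the score limit (155.03 to 159.98) were 1751 bp wide and 18.6 kb from the nearest H3K27ac peak at the median. The 450 unmarked peaks just above it (160.01 to 164.98) had 1728.5 bp and 20.8 kb. At the outer distance limit, 289 elements with H3K4me3 at a median of 97.3 kb were 1200 bp wide at the median, against 1165 bp for 285 weak unmarked peaks at a median of 102.2 kb. At the inner limit, the median width was 1180 bp for 108 elements with H3K4me3 at a median of 1.05 kb and 1193 bp for 95 weak unmarked peaks with it at a median of 0.95 kb. At the overlap limit the median widths lay farther apart, but both sets were small and no intervals were computed. Where H3K27ac stopped at most 100 bp short of an element, as it did for 57, the median score was 84.6 and the median width 1333 bp, against 66.9 and 1109.5 bp for the 50 weak acetylated elements that shared at most 100 bp with it.

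The distance to H3K4me3, which the rule bounds, had a median of 20.2 kb for weak unmarked elements (19.8 to 20.5) and 18.5 kb for strong unmarked elements (17.8 to 19.1). Weak unmarked elements were found at every range, with 6.4% of them at 1 to 2.5 kb, 27.3% at 10 to 25 kb and 19.4% at 50 to 100 kb. Neither score nor width followed this distance. The median score was 81.2 at 1 to 2.5 kb and 80.5 at 50 to 100 kb, the median width was 1219 and 1209 bp in these bands, and rho between score and distance was -0.016 over the 25574 elements.

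The H3K4me3 peaks nearest to weak unmarked elements were a mixed set. H3K27ac lay on the nearest H3K4me3 peak of 46.6% of them (46 to 47.3), H3K27me3 without H3K27ac on that of 13.1% (12.7 to 13.6), and neither mark on that of 40.2% (39.6 to 40.8). Strong unmarked elements gave almost the same shares, 45.8%, 13.8% and 40.4%. The difference in the H3K27ac share, weak minus strong, was 0.883 percentage points (-0.291 to 2.06). Weak acetylated elements stood apart: H3K27ac lay on the nearest H3K4me3 peak of 64% of them (62.2 to 65.7) and H3K27me3 alone on that of 5.64% (4.86 to 6.54). Weak unmarked elements were 17.4 points lower than these in the first share (interval of the difference -19.2 to -15.5) and 7.5 points higher in the second (6.57 to 8.44). Acetylated elements of any score had 63.4% for the first share. Neither mark lay on the nearest H3K4me3 peak of 30.4% of weak acetylated elements (28.7 to 32). Across all 27970 autosomal H3K4me3 peaks, 49.3% overlapped H3K27ac, 15.8% H3K27me3 alone and 34.9% neither mark.

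The state of the nearest H3K4me3 peak thus went with acetylation of the element and hardly with the strength of its H3K4me1. Within the weak unmarked elements, the H3K27ac share was 47.3% (46 to 48.7) at scores from 50 to 60 and 44.2% (42 to 46.3) at scores from 140 to 160. The gap to weak acetylated elements was seen in every distance band. At 1 to 2.5 kb it was 49.1% of 1636 weak unmarked elements against 78.3% of 161 weak acetylated elements. At 10 to 25 kb the shares were 46.7% and 68.7%, and at 50 to 100 kb they were 44.7% and 52%, with intervals that did not overlap (43.4 to 46.1 and 47.9 to 56.1). Within 10 kb the H3K27ac peak on a weak acetylated element can lie close to the one on H3K4me3, so the farther bands are the less dependent comparison. The H3K4me3 peaks next to weak unmarked elements were 1098 bp wide and scored 1087.6 at the median, while those next to weak acetylated elements were 1237 bp wide and scored 1765.9.

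**Figure D3:**
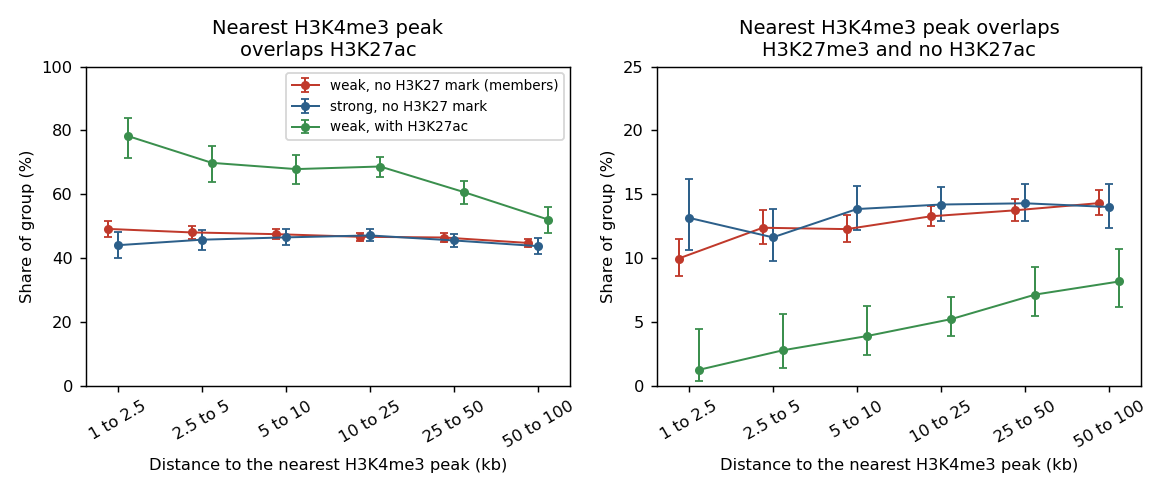
Share of elements whose nearest H3K4me3 peak overlaps H3K27ac (left) or H3K27me3 alone (right), in bands of distance to that peak (x axis, kb). Points are shares of weak unmarked, strong unmarked and weak acetylated elements, with 95% Wilson intervals. On the left both unmarked groups lie between 43.7% and 49.1% in every band, below the weak acetylated elements.

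Many weak unmarked elements shared an H3K4me3 peak. The 25574 elements had 11472 distinct nearest H3K4me3 peaks, which were 41% of the autosomal list, with a mean of 2.23 elements each. A single element was assigned to 46.9% of these peaks, and 64 peaks had 10 or more. Counted once per H3K4me3 peak, H3K27ac lay on 47.8% of those next to weak unmarked elements (46.9 to 48.7), on 46.2% of the 5843 next to strong unmarked elements and on 62.3% of the 2348 next to weak acetylated elements.

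The H3K4me3 peak with the most weak unmarked elements was on chromosome 6 at 53988892 to 53990768. It scored 2551 and overlapped H3K27me3 without H3K27ac, and no other H3K4me3 peak lay within 217.4 kb before it or 285.7 kb after it. It was the nearest one to 26 H3K4me1 peaks, 17 of them weak unmarked elements, 7 on the side of lower coordinates and 10 on the other. These elements lay 3.89 to 98.4 kb away, scored 54.6 to 123.3, and 3 of them had H3K27ac within 10 kb. The second such peak, on chromosome 5 at 36236022 to 36237719, scored 3100 and overlapped H3K27ac alone. It was nearest to 34 H3K4me1 peaks, of which 16 were weak unmarked elements with scores of 50.6 to 157.3, and 7 of these had H3K27ac within 10 kb. Its neighbouring H3K4me3 peaks lay 102.8 kb before and 501.5 kb after it. H3K4me3 peaks in either state could therefore be surrounded by many weak unmarked elements. Choosing the peaks nearest to the most elements favours those far from other H3K4me3 peaks, so their isolation is not a result.

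H3K27ac was often in reach of the elements although it did not touch them. The rule excludes overlap only, and 3.63% (3.41 to 3.87) had an H3K27ac peak within 1 kb, 34.9% (34.4 to 35.5) within 10 kb and 76.9% within 50 kb. The median distance was 18.3 kb, against 16.1 kb for strong unmarked elements. The share within 10 kb differed from the 37.1% of strong unmarked elements by -2.12 points (-3.26 to -0.987). With H3K27 peaks at or above their list's median score alone, the rule kept a larger set of 27538 elements, and 22.9% of these had such an H3K27ac peak within 10 kb. With a score limit of 200 the difference was -3.47 points. The order was the reverse in most width bands. In the width band that ends at 1500 bp the share was 34.1% of weak and 34.8% of strong unmarked elements, with intervals that overlapped, but in the next one, at 1500 to 2000 bp, it was 36.9% (35.6 to 38.3) of 5119 weak and 33.4% (31.7 to 35.3) of 2644 strong unmarked elements. It was also higher in weak unmarked elements in the distance bands below 10 kb, for example 58.3% against 56.6% at 5 to 10 kb, where the intervals overlapped. H3K27ac peaks that were themselves distal lay within 10 kb of 23.2% of weak and 24.8% of strong unmarked elements.

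Within the weak unmarked elements the score carried almost no information on H3K27ac nearby. In the score bands the share with H3K27ac within 10 kb ranged from 34.4% to 35.9%, and rho between score and distance to H3K27ac was -0.012. This contrasts with overlap itself, whose share was higher in each score band than in the one below. The elements had 12086 distinct nearest H3K27ac peaks. Counted once per element, 42.3% of these lay on H3K4me3 and 85.2% on H3K4me1, and their median score was 149.9. All autosomal H3K27ac peaks, each counted once, had 41.8%, 79.1% and 162.8.

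H3K27me3 was farther off, at a median of 105.9 kb from weak unmarked elements (103.4 to 108.9) and 89.2 kb from strong unmarked elements. A peak of it lay within 10 kb of 7.71% of weak unmarked elements (7.39 to 8.04), 9.79% of strong unmarked elements (9.2 to 10.4) and 2.65% of weak acetylated elements (2.13 to 3.3). Most of these cases were close to H3K4me3, since the share in weak unmarked elements was 20.2% at 1 to 2.5 kb from H3K4me3 and 1.62% at 50 to 100 kb. Among the other marks, the nearest peak was H3K27ac for 48.7%, H3K4me3 for 39.1% and H3K27me3 for 12.2% of the weak unmarked elements. Strong unmarked elements gave 49%, 38.5% and 12.5%. In the same order, the autosomal lists held 32808, 27970 and 11419 peaks, and the rule bars H3K4me3 within 1000 bp. The split therefore depends in part on list length and on the rule.

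**Figure D4:**
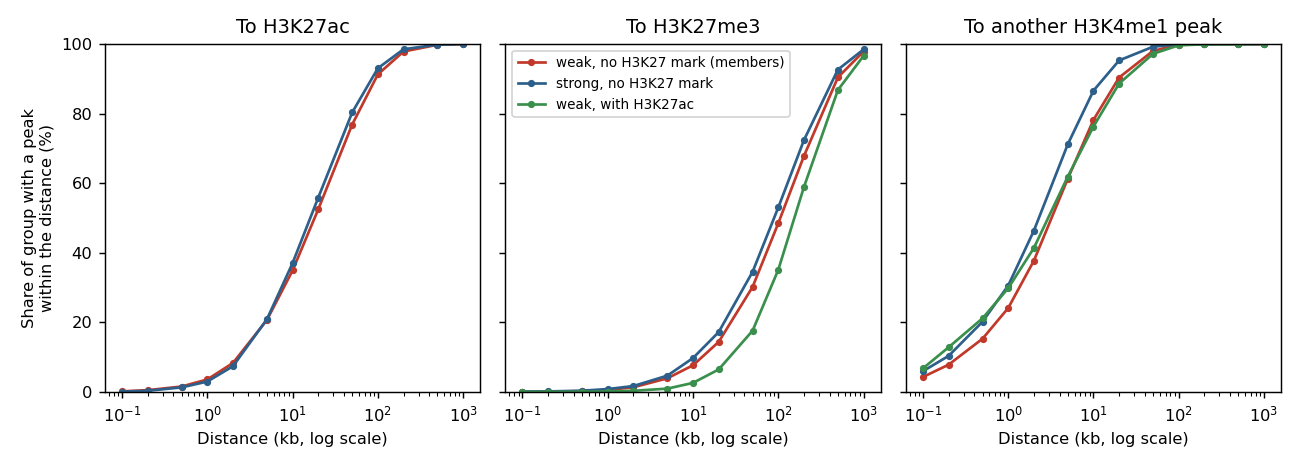
Share of elements (y axis, %) with an H3K27ac, H3K27me3 or other H3K4me1 peak within a distance (x axis, kb, log scale). Weak acetylated elements overlap H3K27ac by definition and are left out of the first panel. Weak and strong unmarked elements nearly coincide for H3K27ac, with medians of 18.3 and 16.1 kb, while weak acetylated elements lie to the right for H3K27me3.

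Another H3K4me1 peak was usually nearer than any other mark, for 88.1% of weak unmarked elements (87.7 to 88.5) and 92.3% of strong unmarked elements. This follows in part from the selection and the lists. The rule bars H3K4me3 within 1000 bp and overlap with H3K27 marks but leaves H3K4me1 neighbours free. The H3K4me1 list is also the longest, with 76362 autosomal peaks against 32808 for H3K27ac. The median gap to the nearest other H3K4me1 peak was 3.26 kb for weak unmarked elements (3.19 to 3.32), 2.3 kb for strong unmarked elements and 3.01 kb for weak acetylated elements. Such a peak lay within 5 kb of 61.3% of weak unmarked elements (60.7 to 61.9), 71.2% of strong unmarked elements and 61.9% of weak acetylated elements. Weak unmarked elements were thus 9.9 points below the strong ones (interval of the difference -11 to -8.81). Their difference from weak acetylated elements was -0.614 points (-2.48 to 1.25). Strong unmarked elements were also wider, and at like width the gap in this share was uneven. At 1500 to 2000 bp the share was 64.6% (63.2 to 65.9) of weak and 65% (63.1 to 66.8) of strong unmarked elements. In the widest band it was 68.2% (60.9 to 74.7) and 76.7% (75.3 to 78), and only there did the intervals not overlap. The strong share was higher in every width band. The part of width in the 9.9 points was not tested.

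The nearest H3K4me1 peak of a weak unmarked element was another such element in 44.4% of cases (43.8 to 45), against their 33.5% share of the autosomal list. Strong unmarked elements had a weak unmarked element as nearest H3K4me1 peak about as often, in 45.1% of cases (44.1 to 46.1). For weak unmarked elements it was a peak within 1000 bp of H3K4me3 in 24.1%, a strong unmarked element in 17% and an acetylated element in 12.7%. Peaks within 1000 bp of H3K4me3 formed 33.3% of the autosomal list and strong unmarked elements 12.4%. Unmarked distal peaks more than 100 kb from H3K4me3 formed 7.93% of it but 1.2% of these neighbours. The distance rule bears on how near such peaks can lie, so the excess over 33.5% follows in part from the rule. Weak acetylated elements had an acetylated element as their nearest H3K4me1 peak in 30.8% of cases (29.1 to 32.5) and a weak unmarked element in 35.2%. Acetylated elements formed 10.7% of the autosomal list.

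Some weak unmarked elements lay close beside another H3K4me1 peak. Within 1000 bp, 6176 of them (24.1%) had another H3K4me1 peak. The elements had a median score of 83.2 and these neighbours one of 145.2, an order that the selection of low scores favours, since the whole list had a median of 128.2. When H3K4me1 peaks were joined within 1000 bp, 75.9% of the elements were alone and 9.37% joined only elements of their own kind. Another 5.05% joined a peak near H3K4me3, 4.47% an acetylated element but no peak near H3K4me3, and 5.15% a strong unmarked element but neither of these.

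How isolated an element was went with H3K27ac in its surroundings. With another H3K4me1 peak within 1000 bp, 52.8% of elements had H3K27ac within 10 kb, and H3K27ac lay on the nearest H3K4me3 peak of 52.2%. With no H3K4me1 peak within 10 kb these shares were 5.22% and 40.9%. As 79.1% of autosomal H3K27ac peaks overlap H3K4me1, an element without H3K4me1 nearby can have few H3K27ac peaks nearby, so the first of these contrasts follows in part from the lists themselves. Distance to H3K4me3 went with both and was not held fixed here. At 1 to 2.5 kb from H3K4me3, 97.2% of elements had H3K4me1 within 5 kb and 65% had H3K27ac within 10 kb. At 50 to 100 kb these shares were 46.7% and 21.5%. Median scores, 83.2 and 79.7, and median widths, 1243.5 and 1183 bp, differed little between the sets.

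Long runs of weak unmarked elements were rare. Counting neighbours at most 10 kb apart with no other H3K4me1 peak between them, 55.6% of elements stood in a run of their own, 26.5% in pairs and 17.9% in runs of 3 or more. Only 113 runs held 5 or more, with 2.42% of the elements, and the longest held 9. One run of 9 was on chromosome 16 at 10861286 to 10906602, where the elements covered 11.4 kb of a 45.3 kb span. Their scores in order of position were 80.5, 120.5, 136.6, 65.4, 129, 56.9, 73, 76.7 and 66.6. Within 20 kb of the run there were 0 H3K27ac peaks, while other H3K4me1 peaks, with scores of 316.5, 72.5 and 186.1, lay on its side of lower coordinates. A single H3K4me3 peak was the nearest to all its elements, at 17 to 61.2 kb, and this peak was 235 bp wide and scored 50.8.

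The other run of 9, on chromosome 2 at 52824937 to 52867188, spanned 42.3 kb beside an acetylated region, with 7 H3K27ac peaks within 20 kb, the nearest 1.79 kb away and all but one on the side of lower coordinates. Its scores were 94.3, 71.3, 99.2, 117.2, 69.8, 138.8, 55.5, 54.1 and 53.5 in order of position. A run on chromosome 2 at 173167790 to 173208630 held 8 elements with scores of 53.3 to 110.1 and widths of 867 to 1587 bp. It had 3 H3K27ac peaks within 20 kb, the nearest 2.72 kb away. No H3K27ac, H3K4me3 or H3K27me3 peak lay inside any of the 3 runs. The H3K4me3 peaks nearest to both runs on chromosome 2 were also narrow and weak, at 351 and 294 bp with scores of 83.5 and 69.1.

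Single elements at the ends of the ranges were the following. The widest, on chromosome 8 at 122867596 to 122874098, was 6503 bp wide but scored only 88, with H3K27ac 6 kb and H3K4me3 7.17 kb away. The next widest were 4112 bp on chromosome 12 at 83287930 to 83292041 and 3992 bp on chromosome 18 at 46606199 to 46610190, with scores of 140.1 and 128.2. All 3 had H3K27ac without H3K27me3 on their nearest H3K4me3 peak.

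The 3 highest scores, 159.98, 159.95 and 159.94, belonged to elements on chromosome 19 at 36607907 to 36609993, chromosome 4 at 133855036 to 133856904 and chromosome 2 at 26031736 to 26034430. Their nearest H3K27ac peaks were 18.6, 10.8 and 34.9 kb away. The lowest score, 50, was shared by 7 elements. The first 3 by position, on chromosome 1 at 192939033 to 192939991, chromosome 2 at 75903114 to 75904374 and chromosome 5 at 66254330 to 66255288, were 959, 1261 and 959 bp wide and had H3K27ac 39.2, 3.75 and 24.3 kb away.

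Across the 19 autosomes the elements were spread evenly relative to all H3K4me1 peaks. They made up between 30.7% of H3K4me1 peaks on chromosome 7 (29.5 to 32.1) and 35.8% on chromosome 6 (34.4 to 37.3), with a median of 33.8%. Their density varied more, from 7.48 per Mb on chromosome 3 to 16.2 per Mb on chromosome 11, and the density of all H3K4me1 peaks was likewise lowest and highest on these, at 22.1 and 50.2 per Mb. Median scores per chromosome lay between 79.2 and 84.3 and median widths between 1196 and 1258 bp. The median distance to H3K4me3 was 16.4 kb on chromosome 11 and 28 kb on chromosome 13. The share of elements with H3K27ac within 10 kb was lowest on chromosome 13 (31.3%) and highest on chromosome 15 (39.2%).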

How the data were processed

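Peak intervals on mm9 with 1 score per peak were used as the authors deposited them, 1 list per library. Bowtie 0.12.9, MACS 1.4 and Cufflinks are named in the submitters' processing notes, with no role or order. No source used here gives the control, the threshold or the treatment of duplicates. Scores were compared within a list only. Depth and antibody quality affect how many peaks a list holds and how wide they are, and an unmarked element may lie below the H3K27 threshold of the authors.

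Overlap meant at least 1 bp, and distances were measured between peak edges. Densities use the last peak end of a chromosome. Groups were compared by shares and medians with 95% intervals, within bands of distance, width and score. Distances and classes were tested on simulated data against a comparison of all pairs. Computation used Python 3.11.15, numpy 2.4.6, pandas 2.3.3, scipy 1.17.1 and matplotlib 3.10.9.

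Regions named are the 3 widest, 3 highest-scoring and 3 lowest-scoring elements, the 3 longest runs and the 2 H3K4me3 peaks nearest to the most elements. The elements, the groups set beside them and these rules were chosen with earlier results of these data known. Sequences, genes and cell type markers were not analysed here, because no genome or annotation of mm9 was used.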

Additional observations from a re-analysis of the deposited data

How the results depend on the processing

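Under 8 other settings, 50 values were recomputed, and 30 of them stayed within the interval of the reported value (for the number of elements, within 1.5 times). The difference from strong unmarked elements in H3K27ac within 10 kb and the difference from weak acetylated elements in the state of the nearest H3K4me3 peak kept their sign wherever they were recomputed, the first of them not with the stronger H3K4me3 peaks alone, which do not enter it. None of these settings compared elements of like width, and within most width bands the first difference had the opposite sign. Among those bands, only at 1500 to 2000 bp did the intervals of the 2 shares not overlap. The difference from weak acetylated elements and the last 2 settings were added after the data were examined. With a score below 120, the median width was 1147.5 bp and 60.7% had H3K4me1 within 5 kb. With a score below 200, the width was 1271 bp and the difference from strong unmarked elements -3.47 points. With H3K27 peaks at or above their list's median score alone, the rule kept 27538 elements. H3K27ac then lay within 10 kb of 22.9% and on the nearest H3K4me3 peak of 36.4%. With H3K27 peaks within 1 kb counted as marks, these shares were 32.6% and 46%, 59.96% had H3K4me1 within 5 kb, and the difference from weak acetylated elements was -19.5 points. With no H3K4me3 within 5 kb, H3K27ac lay within 10 kb of 29.6% and H3K4me1 within 5 kb of 55%. With H3K4me3 at most 50 kb away, these were 38.2% and 64.8%, and the difference from weak acetylated elements was -19.8 points. With H3K4me3 peaks at or above their median score alone, H3K27ac lay on the nearest of 62.6%, and the difference from weak acetylated elements was -14.6 points. Without elements that had H3K4me1 within 1 kb, the width was 1214 bp, H3K27ac lay within 10 kb of 29.3% and on the nearest H3K4me3 peak of 44.9%. The causes were not tested. With 1 library per mark and unknown depth, weak H3K27 signal below the authors' threshold was not detectable here.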

Other observations

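H3K27ac lay within 10 kb of 34.9% and H3K27me3 within 10 kb of 7.71% of the weak unmarked elements, all of which are autosomal by selection. On the X chromosome, 81 of 410 H3K4me1 peaks (19.8%, Wilson interval 16.2 to 23.9) met every other criterion, and 38.3% of these had H3K27ac and 64.2% H3K27me3 within 10 kb. Their median score was 65.9 and their median width 1172 bp, and 5 unmarked distal peaks of the X chromosome scored 160 or more. Of the 16975 H3K27me3 peaks only 11419 were autosomal, against 76362 of the 76772 H3K4me1 peaks. The share with H3K27me3 within 10 kb was not computed for all H3K4me1 peaks of the X chromosome. Whether 64.2% is particular to these 81 peaks was therefore not tested.

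Another H3K4me1 peak lay within 5 kb of 61.3% of the weak unmarked elements, and of 35.7% of the 6052 unmarked distal peaks of any score that were more than 100 kb from H3K4me3. The median scores were 81.9 and 88.2, and 34.9% and 13.4% had H3K27ac within 10 kb. These contrasts depend in part on the distance rule, since the remote peaks lie too far from H3K4me3 to have H3K27ac on H3K4me3 so near. For H3K27ac peaks that were themselves distal the shares were 23.2% and 13.4%. Among weak unmarked elements at 50 to 100 kb from H3K4me3, 21.5% had H3K27ac within 10 kb and 46.7% another H3K4me1 peak within 5 kb.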
